A study of Mus musculus with 8 samples.

Results

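The genes described are 9 transcription factors of effector and innate-like lymphocytes: Tbx21 (T-bet), Eomes, Prdm1 (Blimp1), Zbtb16 (PLZF), Bach2, Zeb1, Zeb2, Bhlhe40 and Irf4. They were chosen by name, as the rows whose gene symbol equals one of these 9 symbols, among 13073 genes listed in either set of tables. All 9 had a row in vivo and 7 had a row in vitro, where the tables list no row for Tbx21 or Eomes. The study sequenced RNA from thymocytes of mice whose Bcl6 alleles are flanked by loxP sites. Bcl6 encodes a zinc-finger repressor of transcription. In vitro WT libraries came from Bcl6fl/fl cells and in vitro KO libraries from Bcl6fl/fl Cd4cre cells. For both, CD4+CD8+ double-positive thymocytes were sorted, stimulated for 24 h with anti-CD3 and anti-CD28 at 8 µg/ml each, and sorted again for double-negative (DN) cells. In vivo WT and KO libraries have the same 2 genotypes and came from thymocytes sorted without culture as CD4-CD8-CD5+TCRb+, which the labels call agonist-p. Each group has 2 libraries, 8 in all. The labels give no age, sex or strain, and they do not say whether replicates came from separate animals, so the p-values reflect the spread among these libraries alone, which may be technical. Cd4cre uses regulatory elements of Cd4, which act in double-positive thymocytes, and the WT groups carry no Cre, so Cre and loss of Bcl6 cannot be told apart. In vivo libraries were built by BGI Genomics and in vitro libraries by Novogene, so provider and system cannot be told apart.

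T-bet and Eomes are T-box activators that drive cytotoxic and interferon-gamma programs in NK cells, innate-like T cells and effector T cells. Blimp1 is a repressor of terminal effector cells, and Blimp1 and Bcl6 are known to repress each other's genes. Bach2 opposes effector differentiation by competing with AP-1 factors, Irf4 is induced by antigen receptor signals and works with BATF and JUN, and Bhlhe40 is an activation-induced repressor. PLZF directs the innate-like program of NKT cells. Zeb1 and Zeb2 are related zinc-finger and homeodomain repressors, Zeb1 needed in early thymocytes and Zeb2 acting with T-bet in terminal effector cells.

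Total counts were 14754440 to 23975636 per library, and no gene with a mean count under 5 in its system was listed, so a gene without a row is low or absent there. The targeted gene does not check the labels. Bcl6 in vitro was at 24.9 and 21.9 FPKM (fragments scaled by transcript length and library size) under the WT label and at 64.6 and 61.0 under the KO label. In vivo it was at 11.5 and 13.9 FPKM (WT) and 8.81 and 14.4 (KO). The values cover the whole gene, and reads from exons outside the floxed part would still be counted. In vitro the direction goes against a loss of the transcript, so WT and KO below are the labels of the libraries, and each direction given is between libraries so labelled. All 10 T cell markers searched had a row in both systems. Of 9 NK cell markers, 1 had a row in vitro and 9 in vivo. Of 10 macrophage markers, 4 had a row in vitro, with summed FPKM of 0.717 to 1.65, and 9 had a row in vivo, with summed FPKM of 144 and 79.1 (WT) and 314 and 167 (KO). Most of each in vivo sum was Fcer1g, at 110 and 64.5 FPKM (WT) and 187 and 146 (KO). Fcer1g is also among the NK cell markers, so the sums do not show macrophage signal raised in both KO libraries. KO replicate 1 stood apart in vivo, with Lyz2 at 109 FPKM against 10.7 to 25.6 in the other libraries. In sorted bulk RNA, fewer cells of a type and less RNA per cell cannot be told apart.

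The promoters of 4 members are shown because these genes differed between the labels in 1 system, by test or, for Eomes, by libraries that did not overlap. Each window runs from 250 bases before to 50 after a RefSeq transcription start (GRCm38.p6), 5′ to 3′ on the gene's own strand. The windows are chr10:44458699-44458998 (minus strand) for Prdm1, chr13:30748983-30749282 (plus strand) for Irf4, chr2:45110228-45110527 (minus strand) for Zeb2 and chr9:118477939-118478238 (plus strand) for Eomes. RefSeq gives 4 windows for Zeb2, and the window shown was picked after the motif search because it holds the matches named below. Capitals mark every motif match.
Prdm1: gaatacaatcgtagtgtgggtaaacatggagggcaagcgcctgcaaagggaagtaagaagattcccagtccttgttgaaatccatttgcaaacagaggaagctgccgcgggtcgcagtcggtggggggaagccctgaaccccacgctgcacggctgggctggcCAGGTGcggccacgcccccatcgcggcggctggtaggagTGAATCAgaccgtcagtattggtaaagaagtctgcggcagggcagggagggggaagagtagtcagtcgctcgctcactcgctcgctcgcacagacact
Irf4: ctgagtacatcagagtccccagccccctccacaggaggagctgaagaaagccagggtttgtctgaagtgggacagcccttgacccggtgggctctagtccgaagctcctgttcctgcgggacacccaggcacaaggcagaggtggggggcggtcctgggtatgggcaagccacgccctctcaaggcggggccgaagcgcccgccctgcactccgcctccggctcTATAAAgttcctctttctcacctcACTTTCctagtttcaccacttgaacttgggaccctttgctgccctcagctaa
Zeb2: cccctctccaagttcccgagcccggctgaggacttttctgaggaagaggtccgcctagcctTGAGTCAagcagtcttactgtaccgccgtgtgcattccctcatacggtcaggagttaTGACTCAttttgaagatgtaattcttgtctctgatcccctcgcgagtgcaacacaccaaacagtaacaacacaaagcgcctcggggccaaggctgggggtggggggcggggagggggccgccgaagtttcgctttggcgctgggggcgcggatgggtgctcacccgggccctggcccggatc
Eomes: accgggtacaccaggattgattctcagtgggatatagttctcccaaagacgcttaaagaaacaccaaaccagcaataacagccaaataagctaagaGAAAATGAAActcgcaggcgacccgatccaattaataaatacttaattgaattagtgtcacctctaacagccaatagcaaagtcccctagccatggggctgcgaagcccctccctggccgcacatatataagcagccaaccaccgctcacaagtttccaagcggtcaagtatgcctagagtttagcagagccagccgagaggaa
The motifs were searched on both strands, and their shares are of all 32851 promoter windows. They were the Bcl6-type motifs TTCNNNGAA (8.30%) and TTCCTNGAA (1.59%, a form of the first), the AP-1 motif TGANTCA (7.81%), the ZEB and E-box motifs CAGGTG (20.2%) and CAGGTA (11.96%), the bHLH motif CACGTG (7.15%), the T-box motif AGGTGTNA (3.03%), the Blimp1 motif GAAAGT (14.3%), the interferon-response motif made of GAAA, any 2 bases and GAAA again (3.44%, which can overlap GAAAGT) and the TATA motif TATAAA (13.6%). The Prdm1 window holds CAGGTG at position -87 and TGAATCA at -48, counted from 0 at the start site. The Irf4 window holds TATAAA at -26 and ACTTTC, the reverse complement of GAAAGT, at -2. The Zeb2 window holds 2 AP-1 matches, TGAGTCA at -189 and TGACTCA at -132, and the Eomes window holds GAAAATGAAA at -154. Promoter entries were found for 6 of the 9 members, with 9 windows in all. Among windows not printed, Tbx21 holds CAGGTG at -196 and Bach2 holds the Bcl6-type match TTCGTTGAA at -140. A pair of overlapping Zeb2 windows hold another Bcl6-type match, TTCTGTGAA at -147 or -173 from their starts, and ACTTTC at -172 or -198, and the fourth Zeb2 window holds no match. A match describes the letters of the window and is not a measured binding site.

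In vitro, 5 of the 7 members with a row differed between the labels. Prdm1 and Zbtb16 rose in the libraries labelled KO, and Irf4, Bhlhe40 and Zeb2 fell, while Bach2 and Zeb1 did not pass the test. Of the 4 members that passed the expression filter (FPKM of at least 1 in at least 2 of the 4 libraries), 2 were called, and both fell. That filter left 9658 genes, of which 37.8% were called (1940 rose and 1709 fell). Prdm1, Zbtb16 and Zeb2 were under the filter and were tested in a fit over every listed gene, where 34.0% of 12133 genes were called. The members' counts, 2 of 4 and 5 of 7, are read against those percentages. By FPKM alone, 6 of 7 members had non-overlapping labels, 3 higher and 3 lower in KO. Of the 9658 genes past the filter, 71.1% did not overlap, and only 4 of the 7 members are among those genes.

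**Figure D1:**
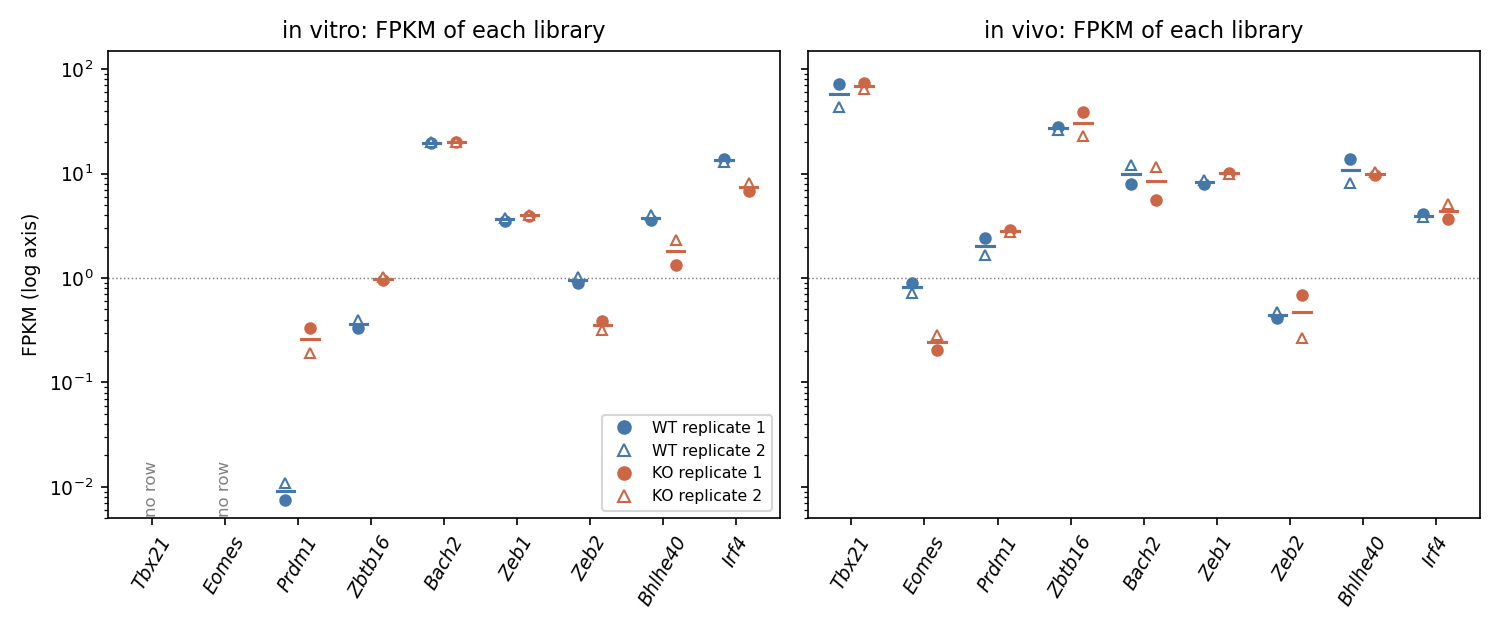
FPKM of each member in each library (log axis), in vitro on the left and in vivo on the right; circles are replicate 1, triangles replicate 2, blue WT, red KO, short lines the group means and the dotted line the filter of 1 FPKM. Prdm1 in vitro lies near 0.01 FPKM in both WT libraries and at 0.190 and 0.333 in the KO libraries, and Eomes in vivo is below its WT values in both KO libraries.

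Prdm1 (chr10:44437177-44528501, minus strand) encodes Blimp1. Its in vitro FPKM was 0.00747 and 0.0110 in WT, from 1 count each. It was 0.333 and 0.190 in KO, from 33 and 23 counts. The groups did not overlap, but even the KO libraries were under 1 FPKM, and the mean of Prdm1 exceeded that of 5.59% of listed genes. Scaled by library size, 56 KO counts against 2 WT counts gave a ratio of 28.7, with an exact Clopper-Pearson 95% binomial interval of 7.58 to 243 that covers counting error only. The edgeR quasi-likelihood fit over every listed gene put the log2 fold change at 4.69 (SE 0.70; edgeR adjusted p = 0.000195, n = 2 a group), a value that depends on how the fit treats single counts.

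Bach2 (chr4:32238804-32586108, plus strand), the AP-1 competitor, was the highest of the listed members in vitro and nearly flat. It was at 19.5 and 20.1 FPKM in the WT libraries and 19.9 and 19.9 in the KO libraries, which lie within the WT range. The log2 fold change was 0.03 (SE 0.08, edgeR adjusted p = 0.761). Irf4 (chr13:30749226-30766976, plus strand) was at 13.9 and 12.9 FPKM (WT) against 6.81 and 8.13 (KO). Every KO library was below every WT library. Irf4 fell by 0.82 on the log2 scale (SE 0.10, edgeR adjusted p = 0.000153), 1.76-fold lower. Bhlhe40 (chr6:108660629-108666925, plus strand) was at 3.59 and 4.01 FPKM (WT) and 1.33 and 2.32 (KO). Both KO values were lower than both WT values, and they lay further apart from each other than the WT values did. Bhlhe40 fell by 1.01 (SE 0.21, edgeR adjusted p = 0.00329), 2.01-fold lower.

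Zbtb16 (chr9:48654297-48836222, minus strand), which encodes PLZF, was low in vitro at 0.331 and 0.394 FPKM (WT) and 0.9496 and 1.03 (KO). The 2 KO libraries were close to each other and above both WT libraries. From 42 and 34 WT counts and 89 and 118 KO counts, the scaled ratio was 2.79 (exact 95% interval 2.14 to 3.68, counting error only). Zbtb16 rose by 1.46 on the log2 scale (SE 0.24, edgeR adjusted p = 0.000409 over every listed gene), 2.76-fold.

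Zeb2 (chr2:44983632-45117395, minus strand) and Zeb1 (chr18:5591860-5775467, plus strand), the ZEB pair, did not move alike in vitro. Zeb2 was at 0.889 and 1.02 FPKM (WT) against 0.391 and 0.317 (KO), from 431, 336, 140 and 139 counts. Both KO libraries were below both WT libraries. Zeb2 fell by 1.43 (SE 0.16, edgeR adjusted p = 1.49e-05 over every listed gene), 2.69-fold lower, and its scaled count ratio of WT to KO was 2.68 (exact 95% interval 2.34 to 3.09, counting error only). Zeb1 was at 3.55 and 3.77 FPKM (WT) and 3.91 and 4.05 (KO). The Zeb1 groups did not overlap, yet the log2 fold change was 0.15 (SE 0.09, edgeR adjusted p = 0.220). The strand setting is not given in the sources used here, and opposite-strand genes overlap exons of Zeb2 (Zeb2os, 653 bases), Bach2 (Bach2os, 537 bases), Zeb1 (Gm10125, 198 bases), Eomes (Gm33460, 118 bases) and Bhlhe40 (0610040F04Rik, 118 bases), so their reads cannot be told apart there.

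**Figure D2:**
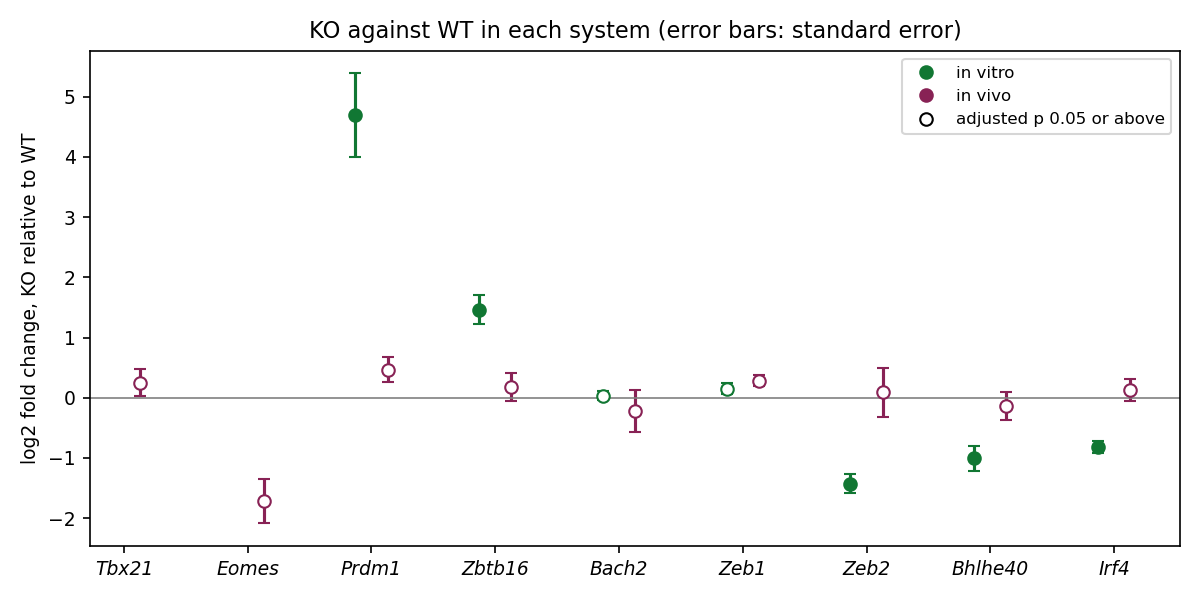
Log2 fold change of KO against WT with its SE for each member in vitro (green) and in vivo (purple); open circles have an adjusted p of 0.05 or above. Prdm1 and Zbtb16 lie above 0 and Zeb2, Bhlhe40 and Irf4 below 0 in vitro, while no member was called in vivo.

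In vivo, no member passed the threshold, and the largest difference was in Eomes. The fit past the filter called 113 of 10227 genes (1.10%, 29 rose and 84 fell, with 1445 genes at an unadjusted p under 0.05), and the fit over every listed gene called 0.940% of 12665, with 1812 at an unadjusted p under 0.05. Of the 9 members, 0 were called by edgeR without a replicate term and 2 (Eomes and Zeb1) had an unadjusted p under 0.05. DESeq2 and limma also called 0 of 9. The count of 113 rested on single libraries, being 191 without WT replicate 1, 7 without WT replicate 2, 21 without KO replicate 1 and 279 without KO replicate 2. By FPKM, 2 members were higher and 1 lower in both KO libraries, and 6 overlapped. Of the 10227 genes past the filter, 43.4% did not overlap, and only 7 of the 9 members are among those genes.

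Tbx21 (chr11:97098071-97115331, minus strand) was the highest member in vivo. It was at 72.2 and 43.7 FPKM (WT) against 73.8 and 64.5 (KO), from 1749 to 3007 counts. The WT libraries differed 1.65-fold from each other and their range held a KO library. The log2 fold change was 0.25 (SE 0.23, edgeR adjusted p = 0.741). Eomes (chr9:118478212-118486132, plus strand), the other T-box factor, was at 0.906 and 0.718 FPKM (WT) and 0.205 and 0.286 (KO). These rest on 63 and 48 counts against 13 and 19, and both KO libraries were below both WT libraries. The scaled count ratio of WT to KO was 3.31 (exact 95% interval 2.22 to 5.07, counting error only). The log2 fold change was -1.72 (SE 0.36, unadjusted p = 0.00257), and it did not pass the adjustment over every listed gene (edgeR adjusted p = 0.102). The same libraries had summed FPKM of 525 and 299 (WT) and 704 and 591 (KO) over the NK cell markers, many of which T-bet-positive T cells share. The sums include Fcer1g, given above, and Gzma, at 117 and 56.0 FPKM (WT) and 208 and 159 (KO). Ncr1 was at 0 to 0.730 FPKM, and Klra8 at 4.57 and 2.74 (WT) and 3.06 and 2.02 (KO). The sums thus do not measure NK cell content. Of 7 stress and quality markers, with summed FPKM of 167 and 118 (WT) and 195 and 257 (KO), 2 rose in vivo, the heat shock genes Hspa1a (2.82 and 1.80 FPKM in WT, 10.7 and 12.5 in KO) and Hspa1b (14.3 and 8.29 in WT, 57.9 and 67.2 in KO). The part of NK cells or of stress in the Eomes values was not tested.

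Prdm1 was at 2.42 and 1.67 FPKM (WT) and 2.91 and 2.76 (KO) in vivo, from 150 to 248 counts. Both KO libraries were above both WT libraries, and the test did not call it (log2 fold change 0.46, SE 0.21, edgeR adjusted p = 0.407). Zeb1 was at 7.88 and 8.62 FPKM (WT) and 10.2 and 10.02 (KO), again without overlap. Its log2 fold change was 0.28 (SE 0.10, unadjusted p = 0.0248, edgeR adjusted p = 0.249).

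The other members overlapped between labels in vivo, several with wide gaps between replicates. Bach2 was at 7.89 and 12.02 FPKM (WT) and 5.57 and 11.5 (KO), with replicate 2 higher under both labels. Cd4, in cells sorted as CD4-, had the same order, at 26.8 and 55.0 FPKM (WT) and 22.8 and 78.4 (KO). So did Ccr7, a chemokine receptor of maturing thymocytes, at 29.2 and 46.6 (WT) and 25.9 and 62.3 (KO). The summed FPKM of 6 regulatory T cell markers had this order too, at 85.2 and 117 (WT) and 66.2 and 120 (KO). The part of the mix of thymocyte stages, or of regulatory T cells, in the Bach2 values was not tested. The Bach2 log2 fold change was -0.23 (SE 0.35, edgeR adjusted p = 0.870), and it was 0.20 without KO replicate 1 and 0.11 without WT replicate 2. Zbtb16 was at 27.8 and 26.4 FPKM (WT) and 38.7 and 22.9 (KO). The KO libraries lay on either side of the WT libraries (log2 fold change 0.18, SE 0.24, edgeR adjusted p = 0.839).

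Zeb2 was at 0.417 and 0.471 FPKM (WT) and 0.681 and 0.266 (KO), from 86 to 210 counts. Its high library, KO replicate 1, is also the one with the highest Lyz2 and macrophage marker sum. Zeb2 is expressed by macrophages too, and their part in its value was not tested. The log2 fold change was 0.09 over all 4 libraries (SE 0.41, edgeR adjusted p = 0.965) and -0.75 without KO replicate 1. Bhlhe40 was at 13.7 and 8.19 FPKM (WT) and 9.65 and 10.3 (KO), both KO values inside the WT range (log2 fold change -0.14, SE 0.23, edgeR adjusted p = 0.882). Irf4 was at 4.13 and 3.80 FPKM (WT) and 3.66 and 5.10 (KO), both WT values inside the KO range (log2 fold change 0.13, SE 0.18, edgeR adjusted p = 0.845).

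**Figure D3:**
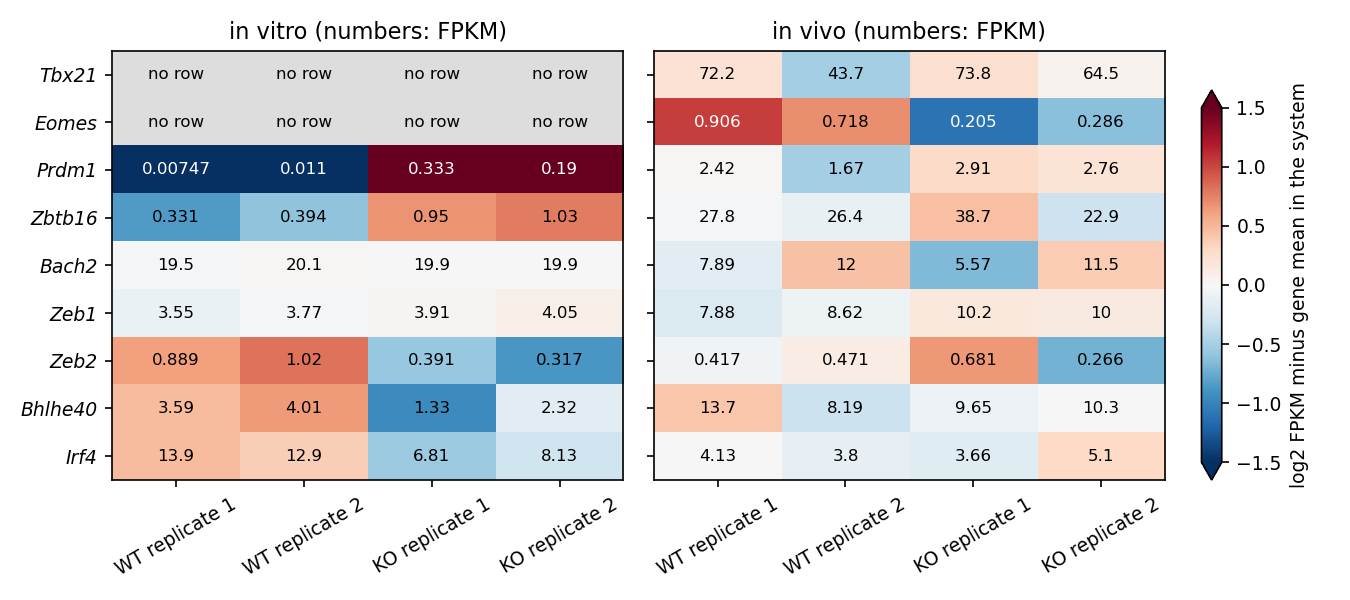
FPKM of each member in each library (numbers), coloured by log2 FPKM minus the gene's mean in its system (red higher, blue lower, colours end at 1.5). In vitro the colours split by label for Prdm1, Zbtb16, Zeb2, Bhlhe40 and Irf4, and in vivo Eomes splits by label while Bach2 splits by replicate number.

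The difference between systems, (KO against WT in vivo) minus (KO against WT in vitro), was tested on the 7 members with a row in both. It was called for 3 of 7. Over all genes, 16.4% of 9364 past the filter in both systems were called, and 13.5% of 11725 in the fit over every listed gene. For Irf4 the difference was 0.98 (SE 0.21, edgeR adjusted p = 0.0121), from -0.82 in vitro to 0.13 in vivo. For Prdm1 it was -4.19 (SE 0.73, edgeR adjusted p = 0.00542), from 4.69 to 0.46, and for Zeb2 it was 1.54 (SE 0.46, edgeR adjusted p = 0.0491), from -1.43 to 0.09. Without in vitro WT replicate 1, none of the 3 was called (edgeR adjusted p = 0.0581 for Prdm1, 0.0647 for Irf4), and Irf4 was also not called without in vitro KO replicate 1 (edgeR adjusted p = 0.0561). Zeb2 was not called in 10 of 14 alternatives, and its difference was 0.71 without in vivo KO replicate 1. Zbtb16 just missed the threshold with a difference of -1.26 (SE 0.38, edgeR adjusted p = 0.0502). The differences of Bhlhe40 (0.89, SE 0.36, edgeR adjusted p = 0.119), Bach2 (-0.23, SE 0.37, edgeR adjusted p = 0.709) and Zeb1 (0.16, SE 0.12, edgeR adjusted p = 0.405) were not called.

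**Figure D4:**
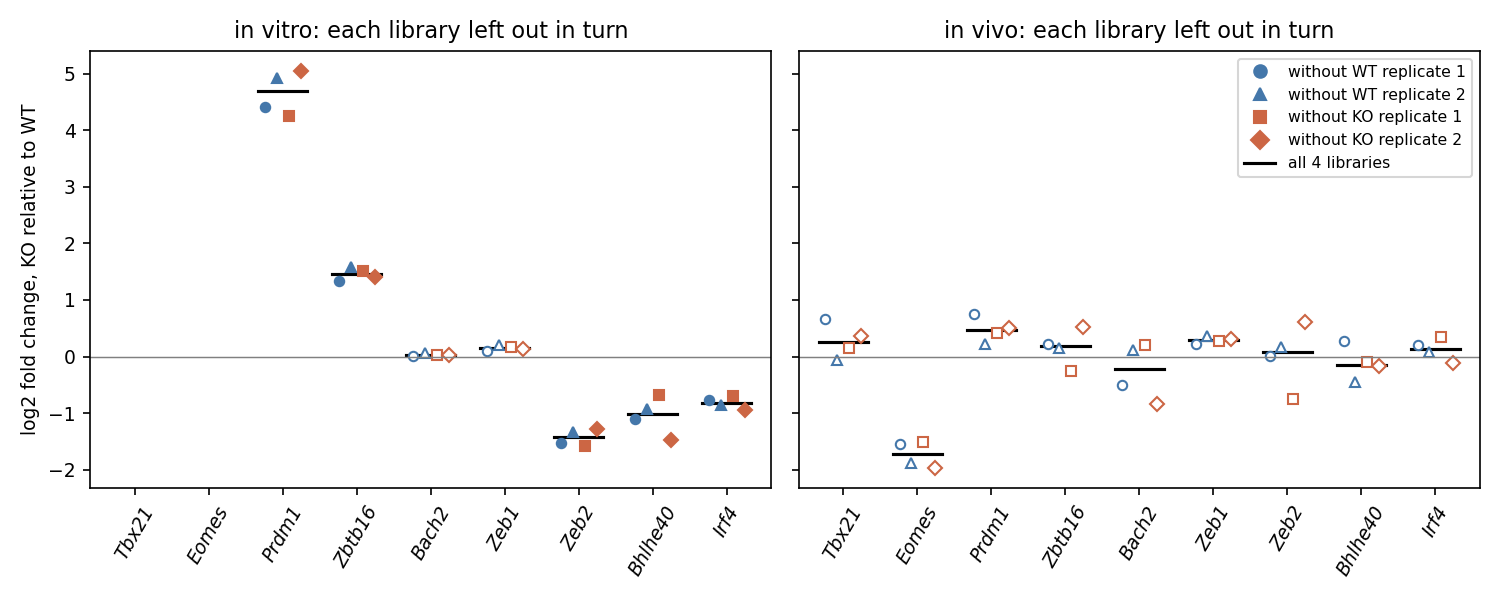
Log2 fold change of KO against WT for each member with all 4 libraries of a system and with each library left out in turn (filled symbols pass the threshold, black lines are all 4 libraries). In vitro the called members keep their sign, and in vivo the values of Tbx21, Zbtb16, Bach2, Zeb2, Bhlhe40 and Irf4 cross 0.

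The order of levels, compared per length as FPKM, differed between the systems. In the in vitro WT libraries Bach2 led, followed by Irf4, then Bhlhe40 and Zeb1, whose values overlapped, then Zeb2, Zbtb16 and Prdm1. In the in vitro KO libraries Zeb1 stood above Bhlhe40 and Zbtb16 above Zeb2, and Zeb2 and Prdm1 overlapped. In the in vivo WT libraries Tbx21 led, then Zbtb16, then Bhlhe40, Bach2 and Zeb1, whose values overlapped with their neighbours, then Irf4, Prdm1, Eomes and Zeb2. In the in vivo KO libraries the order was the same down to Zbtb16, the next 3 genes again overlapped, and Zeb2 and Eomes overlapped at the bottom. Zbtb16 exceeded 86.5% of listed genes in vivo and 17.9% in vitro, and Tbx21 exceeded 95.4% in vivo. Prdm1 exceeded 29.8% in vivo. Bach2 exceeded 77.3% in vitro and 57.8% in vivo, and Irf4 60.7% and 38.6%. Bhlhe40 exceeded 32.5% in vitro and 61.1% in vivo, Zeb1 37.7% and 57.5%, Zeb2 17.5% and 13.1%, and Eomes 14.3% in vivo. These ranks set the systems side by side without a test.

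Related genes were counted in 7 lists that share some members, and their counts in vitro stand beside the 37.8% of all tested genes called there, 1940 of 9658 having risen. Of 20 genes of the innate-like PLZF program, 13 were tested in vitro, 9 rose and 0 fell, with a median log2 fold change of 1.40 against -0.0028 over all genes tested. Il12rb1, a receptor chain for IL-12, rose by 2.16, Id2, an inhibitor of E proteins, by 1.89, and Gata3, a T lineage factor, by 1.66. Zbtb7b, which encodes ThPOK, rose from 0.0223 and 0.0438 FPKM to 1.16 and 1.35. Zbtb7b and Il18r1 were under 1 FPKM in both WT libraries and were tested only through their KO values. The number that rose and the median thus depend in part on the filter and are no test of the program. Egr2, Slamf1, Slamf6 and Il17rb were tested in vitro and not called, and Klrb1b, Klrb1c, Klrk1 and Maf had no row there. Cd44, Il4 and Rora were under the filter. Cd44 was at 0.676 and 0.587 FPKM (WT) and 0.616 and 0.721 (KO), Il4 at 0.679 and 0.399 (WT) and 0.276 and 0.488 (KO). Rora was higher in KO, at 0.178 and 0.257 (WT) and 0.526 and 0.328 (KO). In vivo all 20 were tested and 0 passed, with a median of -0.07 against -0.0036 over all genes.

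Of 24 effector targets, 9 were tested in vitro, 5 rose and 4 fell (median 0.50). Of those that rose, Ccl4, Cx3cr1 and Il18r1 were under 1 FPKM in both WT libraries. They were tested only through their KO values, such as Cx3cr1 at 0.370 and 0.543 FPKM (WT) and 1.45 and 2.07 (KO). The number that rose and the median thus depend on the filter and give no direction for the list. The genes that fell include the 3 with the highest WT FPKM. Xcl1, a chemokine of NK and CD8 T cells, went from 648 and 606 FPKM to 121 and 154 and fell by 2.16, Nkg7, a granule protein, fell from 45.6 and 42.1 FPKM to 13.7 and 16.6, and Cd160, a receptor of innate-like T cells, fell by 1.21. Il2rb, the IL-2 and IL-15 receptor chain, rose by 0.91. The in vitro tables list 13 of the 24, and Ifng, Cxcr3 and Gzmb, known T-bet targets named after their rows were looked up, are without a row there. In vivo 20 were tested, 0 rose and 1 fell (median 0.27). That gene was again Cd160, at 44.9 and 46.1 FPKM (WT) and 29.9 and 29.1 (KO), which fell by 0.63 (edgeR adjusted p = 0.0393).

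Of 15 genes that Blimp1 is known to repress, 9 were tested in vitro, 5 rose and 2 fell (median 0.35), in libraries where Prdm1 itself stayed under 1 FPKM. Ccr7 rose by 1.65. Bcl6, which is both the targeted gene and in this list, rose by 1.45. Il2ra, an activation-induced IL-2 receptor chain, fell by 1.98. In vivo 13 were tested, 0 rose and 1 fell (median 0.21), and that gene was Id3, an inhibitor of E proteins, which fell by 0.82 (edgeR adjusted p = 0.0471).

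Of 18 partners of IRF4, BATF and BACH2, 11 were tested in vitro, 2 rose and 2 fell (median 0.02), which is near the share of 37.8% over all genes and so no result about the list. Fosl2 rose by 0.64 and Bach1 by 0.41, while Junb, an AP-1 subunit that binds with BATF, fell by 0.58 and Mafg, a small MAF partner of BACH factors, fell by 0.35. In vivo 15 were tested and 0 passed. Of 19 paralogs of members, 12 were tested in vitro, 7 rose and 0 fell (median 0.40). Zbtb7b and Irf7 were tested only through their KO values, Irf7 being at 0.849 and 0.843 FPKM (WT) and 1.96 and 2.04 (KO). The number of paralogs that rose and their median thus depend in part on the filter and give no direction for the list. The interferon regulatory factors Irf1, Irf7 and Irf2 rose by 1.10, 1.26 and 0.39, opposite in sign to Irf4. Irf8 was lower, like Irf4, but not called (log2 fold change -0.52, SE 0.20, edgeR adjusted p = 0.0592). Irf3 (-0.11) and Irf9 (0.27) were not called either. In vivo 15 of the paralogs were tested and 0 passed.

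Of 12 genes known as ZEB targets, 6 were tested in vitro, 5 rose and 0 fell (median 0.73). The list mixes epithelial genes such as Epcam with mesenchymal genes such as Vim, so its counts and median do not measure ZEB activity. Vim, an intermediate filament gene, rose by 2.13, Cd4 by 0.72 and Itga4, an integrin chain, by 0.69. Epcam, an adhesion gene, rose by 0.74. Esrp1, under the filter and not tested, was lower in KO, at 0.489 and 0.495 FPKM (WT) and 0.116 and 0.132 (KO). In vivo 8 were tested and 1 rose, Cdh3 (P-cadherin), from 0.354 and 0.283 FPKM to 1.14 and 1.33. Cdh3 was tested only through its KO values, so the number that rose in vivo depends on the filter and gives no direction for the list. Among its other epithelial genes in vivo, Esrp2 was at 1.45 and 2.38 FPKM (WT) and 0.513 and 0.504 (KO). Its fall was not called (log2 fold change -1.91, SE 0.31, edgeR adjusted p = 0.0588). Epcam was lower (-0.73) and Cdh1 higher (0.98), and neither was called. Esrp1, under the filter, was at 0.417 and 0.404 FPKM (WT) and 0.0519 and 0.0595 (KO). Of 23 stem-like and effector factors, 19 were tested in vitro, 12 rose and 3 fell (median 0.35). Klf2, a driver of thymic exit, was up by 2.23 and Runx3, a cytotoxic lineage factor, by 2.35. Runx3, at 0.358 and 0.428 FPKM (WT) and 1.78 and 2.10 (KO), was tested only through its KO values. The number of these factors that rose thus depends in part on the filter. In vivo all 23 were tested, 0 rose and 1 fell, which was Id3 (median -0.07). The 7 lists hold few called genes in vivo, as does the background of 1.10%.

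**Figure D5:**
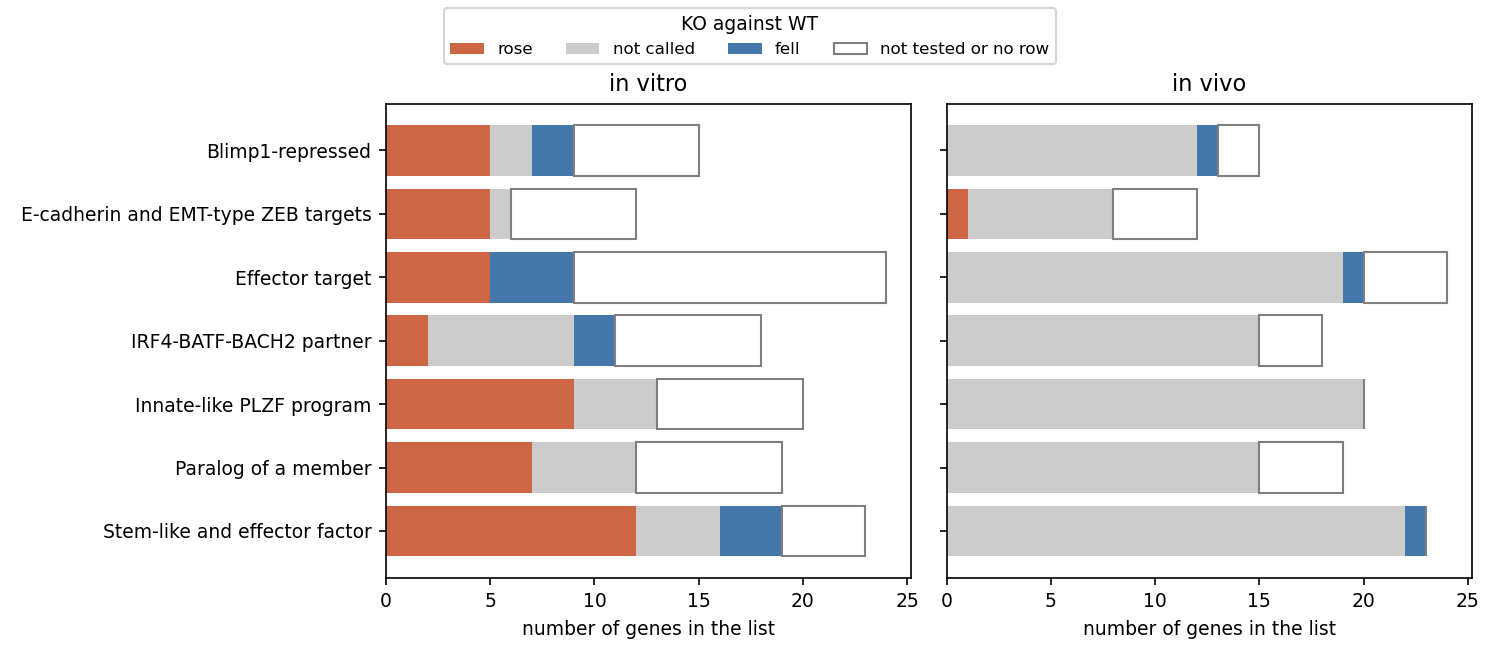
Number of genes of each list that rose, fell or were not called in KO against WT, and the number not tested or without a row, in vitro and in vivo. In vitro 9 of 13 tested genes of the PLZF list rose, Zbtb7b and Il18r1 among them passing the filter only through the KO libraries. In vivo 0 of 20 rose.

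The genes with the most similar pattern were found by the root mean square difference, over the 8 libraries, between log2 CPM values each centred on the mean of its system, among 9364 genes. Irf4 lay nearest to Zfp202 (0.0829), Nfkb2, a subunit of NF-kB (0.0985), and Snx15 (0.107), against a median of 0.348 over all genes. Bhlhe40 lay nearest to Lrrk1 (0.129), Nhlrc1 (0.152) and Phlda1 (0.162), with a median of 0.487. Bach2 lay nearest to Mapk11 (0.0860), Tmem150a (0.119) and Pik3r3 (0.120), with a median of 0.348. Zeb1 lay nearest to Bcr (0.0313), Zfp109 (0.0320) and Camkk2 (0.0338), with a median of 0.190. The nearness of a nearly flat gene such as Zeb1 is to other nearly flat genes, and the values share the same 8 libraries.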

How the data were processed

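The data are 8 RNA sequencing libraries from sorted thymocytes, put into 4 groups of 2 by the labels. Per the labels' protocols, RNA was isolated with TRIzol. The authors deposited, for each library, a raw whole-number count and a normalized FPKM for each gene. Build mm10 and the tools RSEM, Subread, featureCounts, Bowtie2, DESeq2 and Trim Galore 0.4.4 are listed, with no role or order, per the submitters' processing notes. Annotation, strand setting and the tool behind each column: not given in the sources used here. Rows with a mean count under 5 in their system are not in the tables.

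The counts were tested with the quasi-likelihood test of edgeR 4.0.16 (R 4.3.3, TMM normalization, two-sided) on each system's 4 libraries, without a replicate term, for genes that reached 1 FPKM in 2 or more libraries, at a Benjamini-Hochberg adjusted p under 0.05 over all genes tested. Members under that filter were read from the same fit over every listed gene. The difference between systems was fitted on the 8 libraries with 1 mean for each of 4 groups. SE was taken as the size of the log2 fold change divided by the root of the F statistic. Low counts were compared as a scaled ratio with an exact 95% binomial interval, and reads without molecular identifiers are not independent molecules. Replicates of a group differed beyond sampling noise (chi-square divided by its degrees of freedom, 11.1 to 22.8), and none was counted as a repeat.

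The members and lists were chosen with earlier results of these data known. The genes named are the members, up to 4 called genes of each list with the smallest adjusted p in a system, and the 3 nearest genes by pattern, with predicted genes, pseudogenes and receptor segments passed over. Lyz2, Gzmb, Ifng, Cxcr3, Fcer1g, Ccl4, Cx3cr1, Il18r1, Irf3, Irf8, Irf9, Esrp1 and Esrp2 were named after their values were seen. So were Cd4, Ccr7, Epcam, Cdh1, Gzma, Ncr1 and Klra8 in vivo, and the genes of the PLZF list that were not called or not tested in vitro. A result for 1 gene is not reported here. Coordinates are from the GENCODE M21 annotation of mm10. The test was tried on simulated data with 100 genes changed 2-fold and 100 changed 4-fold. It recovered 100 and 99 in vitro (13 false calls among 9658 genes), 94 and 100 in vivo (8 among 10227) and 91 and 100 for the difference (5 among 9364). Over every listed gene it recovered 88 and 97 in vitro (11 among 12133), 73 and 97 in vivo (8 among 12665) and 79 and 98 for the difference (6 among 11725). How often a change of either size is found in the sequenced libraries was not tested. In vivo the SE of the members ran from 0.10 (Zeb1) to 0.41 (Zeb2), and Eomes, 3.29-fold lower, was not called. Alternatives were DESeq2 1.42.0, its size factors in edgeR, limma 3.58.1 on log2(FPKM + 1) or log2(FPKM + 0.1), other filters, robust estimation, all 8 libraries in the fit, each library left out in turn, and the replicate number as a block.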

Additional observations from a re-analysis of the deposited data

Results flagged for a closer look

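The effect of the KO label differed between the systems, by a test of the difference itself (in vivo minus in vitro, edgeR), for 3 members. The difference in log2 fold change was -4.19 for Prdm1, 1.54 for Zeb2 and 0.98 for Irf4. The Prdm1 value rests on 1 count in each in vitro WT library, and with limma it was 0.023 on log2(FPKM + 1) (limma adjusted p = 0.948) and -1.23 on log2(FPKM + 0.1) (limma adjusted p = 0.0548). The Zeb2 difference was not called in 10 of 14 alternatives, and the Prdm1, Zeb2 and Irf4 differences were not called without in vitro WT replicate 1. Provider, culture and cell population differ between the systems and cannot be told apart. With 2 libraries a group, no check for outlying libraries was made.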

How the results depend on the processing

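Counts of called genes in vivo (113) depended most on the setting: 505 by DESeq2, 68 by limma on log2(FPKM + 1), 75 by limma with a pseudocount of 0.1, 545 with all 8 libraries in the fit and 7 to 279 with each library left out, the lone library left in a group being assumed to vary like the others. For the difference (1534), leaving out a library gave 533 to 1816. The causes were not tested. Replicate numbers have a correlation of same-number deviations of -0.295 in vitro and 0.452 in vivo over only 2 pairs, too few to show whether the numbers pair the libraries. A replicate block gave 3159 calls in vitro (3649 without it), 1078 in vivo and 1796 for the difference, and with it Eomes in vivo (edgeR adjusted p = 0.000936) and the differences of Zbtb16 (0.00545) and Bhlhe40 (0.0166) were called. Crossed replicate numbers, chosen after seeing the data, gave 4997 calls in vitro. In vitro the 5 called members were called in every alternative that tested them, with Prdm1 at 0.32 on log2(FPKM + 1), where the pseudocount exceeds its FPKM. In vivo no member was called in the other alternatives. Log2 fold changes that changed sign were Zeb2 in vivo (-0.023 with limma on log2(FPKM + 0.1), -0.0072 with the block, -0.75 to 0.61 with each library left out) and, with each library left out, Tbx21 (-0.064 to 0.66), Zbtb16 (-0.26 to 0.52), Bach2 (-0.83 to 0.20), Bhlhe40 (-0.46 to 0.28) and Irf4 (-0.11 to 0.35) in vivo. The difference of Prdm1 was 0.023 with limma on log2(FPKM + 1), and that of Bach2 was -0.84 to 0.20 with each library left out. Zbtb16's difference was called with DESeq2 (adjusted p = 0.00211). Depth limits Prdm1 in vitro (2 WT counts) and Eomes in vivo (32 KO counts).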
